A study of Mus musculus with 32 samples.

Results

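The genes described here are the autosomal protein-coding genes of the mouse kidney that span at least 500 kb from annotated start to end. Of 54532 genes in the count table, 219 on chromosomes 1 to 19 were protein-coding and that long, and 111 of them had a mean raw count of at least 20 over the 32 libraries. The other 108 were below that limit and are not described. The genes were chosen by their mean count and by no other measured value, and they were set against 12975 autosomal protein-coding genes under 500 kb that passed the same count limit. Just inside the span limit lay Dock1 at 503.0 kb and Cpq at 511.4 kb, and just outside it lay Pde1c at 499.3 kb and Dnm3 at 495.6 kb. Dpp6 and Rbfox1 passed the count limit with a mean of 20.8 each, while Edil3 at 19.8 and Tenm2 at 18.4 did not. A mean of at least 20 was held within both Day 0 groups by 101 of the 111 genes and within all 8 groups by 86, so a part of the set was admitted through the groups in which it was high, and counts over the 111 are given as a description.

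The kidneys came from wild-type C57BL/6 mice aged 6 to 8 weeks. Males and females formed separate groups of 4 mice on Day 0 and on Days 2, 3 and 5 after injection, with 1 mouse per library. Mice of Day 2, Day 3 and Day 5 had received a single intraperitoneal injection of 20 mg/kg cisplatin in saline, and Day 0 mice are healthy controls in the study, although the labels of the Day 0 females carry the drug's name. The question put to the set was whether cisplatin lowered long transcription units, with Fhit, Immp2l and Gmds named in advance because their fall in these data was already known. Their values are therefore a description, and the question is put to the other long genes beside them.

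Cisplatin is a platinum drug that crosslinks DNA, and the kidney tubule takes it up and is injured by it. An RNA polymerase that meets such a lesion on the transcribed strand can stall there, and a longer gene offers a longer path on which to meet one. Long genes take hours to transcribe, consist almost wholly of intron, and include several of the common fragile sites, regions that break when replication is slowed. Kidney tissue holds many cell types, and in bulk RNA a smaller number of cells of a type and less RNA per cell cannot be told apart.

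The 111 genes spanned 503 to 2961 kb with a median of 689 kb, against a median of 24 kb for the shorter genes. The principal transcript, the annotation's main isoform, had a median of 19 exons in the long genes (range 2 to 146) and 9 in the shorter genes. Spliced length differed much less than span, with a median of 5464 bases in the long genes and 2950 in the shorter ones. Spliced bases therefore made up 1.09% of the transcript's span at the median, against 13.2%, and the median longest intron was 160 kb against 6.99 kb. Level per length was low: the median was 0.533 CPM (the count scaled to library size) per kb of exon in the long genes and 4.16 CPM per kb in the shorter genes. The gene span and the transcript made in the kidney are not the same thing for every member. The principal transcript reached 500 kb in 77 of the 111 genes, was under 200 kb in 9 and under 100 kb in 4. Fgfr2, a receptor for fibroblast growth factors, had the longest annotated span at 2961 kb, yet its principal transcript covered 102 kb, and that of Rasgef1b, a guanine nucleotide exchange factor, covered 35.5 kb of a 512 kb locus.

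Fhit, Immp2l and Gmds show how little of such a gene is message. Fhit, a diadenosine polyphosphate hydrolase gene that lies on a common fragile site in humans, runs on the minus strand of chr14:9550092-11162035 (GRCm38, as are all coordinates here), with introns of up to 551319 bases around a coding sequence of 450 bases in 6 coding exons. Immp2l, a subunit of the inner mitochondrial membrane peptidase, lies on the plus strand of chr12:41024090-41955588 and encodes its protein in 525 bases over 5 coding exons, with a longest intron of 517820 bases. Gmds, the enzyme that starts GDP-fucose synthesis from GDP-mannose, lies on the minus strand of chr13:31819579-32338740 with 1116 coding bases in 11 coding exons and a longest intron of 159754 bases. The first 300 coding bases of each principal transcript are printed below because they show how the message is assembled across these spans. Lower case and capitals alternate at each exon boundary, so every change of case marks an intron that had to be transcribed and removed.
Fhit coding start: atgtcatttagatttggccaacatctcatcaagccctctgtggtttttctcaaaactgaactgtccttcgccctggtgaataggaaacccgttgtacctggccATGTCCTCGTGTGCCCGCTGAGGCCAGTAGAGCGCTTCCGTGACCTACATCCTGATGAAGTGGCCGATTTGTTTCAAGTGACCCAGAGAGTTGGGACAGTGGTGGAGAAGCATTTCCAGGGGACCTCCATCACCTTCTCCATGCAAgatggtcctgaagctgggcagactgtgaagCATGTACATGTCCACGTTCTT
Immp2l coding start: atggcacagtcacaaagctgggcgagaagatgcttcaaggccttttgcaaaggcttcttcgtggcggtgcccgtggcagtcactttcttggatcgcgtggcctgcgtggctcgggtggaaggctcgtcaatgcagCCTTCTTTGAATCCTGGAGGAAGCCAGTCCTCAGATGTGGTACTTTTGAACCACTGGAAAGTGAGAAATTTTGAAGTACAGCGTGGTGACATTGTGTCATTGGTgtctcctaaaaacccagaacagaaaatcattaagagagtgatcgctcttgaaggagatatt
Gmds coding start: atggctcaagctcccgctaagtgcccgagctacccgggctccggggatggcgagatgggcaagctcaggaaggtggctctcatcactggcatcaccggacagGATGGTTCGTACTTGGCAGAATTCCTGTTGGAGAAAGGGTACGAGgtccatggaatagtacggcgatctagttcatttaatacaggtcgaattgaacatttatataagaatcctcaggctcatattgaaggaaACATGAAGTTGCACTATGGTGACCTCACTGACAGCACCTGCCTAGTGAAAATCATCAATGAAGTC

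The start sites of the same genes are printed because they differ in CG content. Each window holds 250 bases before to 50 after the RefSeq start (GRCm38.p6), read 5′ to 3′ on the gene's strand, and capitals mark each CG dinucleotide. The Fhit window at chr14:11161986-11162285 (minus strand) held 12 CG, the Immp2l window at chr12:41023840-41024139 (plus strand) 32, and the Gmds window at chr13:32338495-32338794 (minus strand) 45. Over 32851 RefSeq windows of this length the median was 7 CG, and 39.59%, 9.522% and 1.933% of windows held at least as many as Fhit, Immp2l and Gmds. RefSeq gives Fhit another window at chr14:10453409-10453708 with 7 CG, and the one printed is nearer the start of the principal transcript. The TATAAA motif, searched only on the strand printed, was in none of the 3 windows and in 8.319% of all windows. For the 88 long genes with a RefSeq window, the window of each gene with the most CG was taken. The median was then 21 CG, against 22 in the shorter genes. These are maxima per gene and are not on the scale of the median over all windows.
Fhit promoter: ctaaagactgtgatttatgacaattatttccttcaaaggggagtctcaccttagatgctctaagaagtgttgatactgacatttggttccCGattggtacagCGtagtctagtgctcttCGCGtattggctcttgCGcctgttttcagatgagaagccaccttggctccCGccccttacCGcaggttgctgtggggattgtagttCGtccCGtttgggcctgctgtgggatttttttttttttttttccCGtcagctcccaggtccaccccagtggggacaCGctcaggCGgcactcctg
Immp2l promoter: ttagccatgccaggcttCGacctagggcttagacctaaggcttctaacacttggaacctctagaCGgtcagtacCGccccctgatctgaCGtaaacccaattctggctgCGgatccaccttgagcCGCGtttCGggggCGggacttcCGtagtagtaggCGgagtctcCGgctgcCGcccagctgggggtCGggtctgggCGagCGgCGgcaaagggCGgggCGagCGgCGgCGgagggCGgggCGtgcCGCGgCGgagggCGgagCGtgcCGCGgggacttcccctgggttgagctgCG
Gmds promoter: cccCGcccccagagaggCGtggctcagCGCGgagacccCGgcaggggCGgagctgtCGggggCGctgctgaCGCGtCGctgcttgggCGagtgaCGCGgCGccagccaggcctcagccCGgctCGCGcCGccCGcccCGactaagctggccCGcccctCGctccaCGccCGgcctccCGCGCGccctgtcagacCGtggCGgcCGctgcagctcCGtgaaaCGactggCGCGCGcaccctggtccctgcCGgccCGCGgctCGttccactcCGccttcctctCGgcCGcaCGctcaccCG

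Several libraries stood apart before any long gene was considered. Total counts ran from 16502107 to 35961325 per library, and the long genes took 0.0399% to 0.287% of them. Transcripts of the mitochondrial genome took 24% of counts in male Day 0 mouse 4, 19.7% in female Day 0 mouse 4 and 4.49% to 14% in the other libraries before Day 5, but 42.5% to 79.8% in males and 9.30% to 77.9% in females at Day 5. Cdkn1a, the p53 target p21, was at 10.4 CPM in male Day 2 mouse 1 (48.7 to 257 CPM in the other 3) and at 22 CPM in female Day 3 mouse 2 (288 to 347 CPM in the other 3), against 7.54 to 19.2 CPM at Day 0. Xist, the X-inactivation transcript of female cells, had 4153 counts in the library labelled male Day 5 mouse 1, where the other male libraries held at most 260 and female libraries at least 1323. The kidney label held: the 14 proximal tubule markers summed to 27179 to 96491 CPM in Day 0 males and 19812 to 48862 CPM in Day 0 females. These sums were 1827 to 11420 CPM in males and 6148 to 14467 CPM in females at Day 5, and none of the 14 was at 0 in any library. Hepatocyte markers summed to 11494 CPM in female Day 0 mouse 2 and to 69.3 to 459 CPM in the other Day 0 females. The part of these libraries in the results was not tested, and counts over the long genes as a whole without each of them are given beside the main counts. Adrenal markers summed to 3.02 to 325 CPM in Day 0 females and to 2.87 to 4.32, 25.4 to 2061 and 515 to 1379 CPM at Day 2, 3 and 5. In males they summed to 0.73 to 59.9 CPM at Day 0 and to 10.1 to 499, 3.76 to 61.9 and 34.4 to 165 CPM at Day 2, 3 and 5. The part of adrenal tissue in the results was not tested.

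Fhit was low in nearly every mouse after cisplatin. In Day 0 males it stood at 5.53, 6.45, 15.0 and 4.95 CPM, and in Day 3 males at 0.125, 0.116, 0.076 and 0.233 CPM, which were 3, 3, 2 and 6 reads. In Day 0 females it stood at 7.82, 12.2, 9.16 and 6.53 CPM, and in Day 2 females at 0.0326, 0.116, 0.0847 and 0.108 CPM, again at most 5 reads in a library. Each of these groups lay wholly below its Day 0 group, and Fhit fell by 5.82 ± 0.54 on the log2 scale (SE; edgeR quasi-likelihood test, n = 4 per group, adjusted p = 0.00216) in males and by 6.63 ± 0.44 (adjusted p = 0.000198) in females. The libraries with near-normal Cdkn1a were also the ones with the most Fhit at their day. Male Day 2 mouse 1 held 2.84 CPM where the other 3 held 0.0740 to 0.201 CPM, and female Day 3 mouse 2 held 4.13 CPM where the other 3 held 0.0992 to 0.315 CPM. With these mice in, the log2 fold changes were -3.24 ± 1.0 (adjusted p = 0.0832) in Day 2 males and -2.94 ± 1.07 (adjusted p = 0.106) in Day 3 females, and without them they were -5.73 (edgeR adjusted p = 0.0179) and -5.62 (edgeR adjusted p = 0.00375). At Day 5 the mice diverged: males held 0.783, 2.23, 0 and 5.48 CPM and females 0.0354, 2.89, 0 and 0.0429 CPM. The male range reached into the Day 0 range and the female range did not, and neither change passed the test, with log2 fold changes of -1.88 ± 0.86 (adjusted p = 0.146) and -3.95 ± 1.37 (adjusted p = 0.231).

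Immp2l fell with Fhit at Day 3 in males and Day 2 in females, and at Day 5 it was low in females and near its Day 0 level in males. In Day 0 males it stood at 3.53, 4.60, 8.03 and 2.99 CPM, at Day 2 at 2.11, 0.712, 0.482 and 0.185 CPM, and at Day 3 at 0.292, 0.425, 0.304 and 0.311 CPM. Both later groups lay below Day 0, and the fall at Day 3 was 3.83 ± 0.40 on the log2 scale (edgeR adjusted p = 0.00275), while Day 2 gave -2.43 ± 0.67 (edgeR adjusted p = 0.0681). Day 5 males stood at 1.85, 6.83, 3.87 and 4.35 CPM, within the Day 0 range apart from mouse 1, with a log2 fold change of -0.15 ± 0.47 (edgeR adjusted p = 0.848). Day 0 females stood at 4.09, 8.52, 8.18 and 3.56 CPM and Day 2 females at 0.260, 0.139, 0.198 and 0.433 CPM, with no overlap and a fall of 4.58 ± 0.50 on the log2 scale (edgeR adjusted p = 0.00382). Day 3 females stood at 0.223, 2.70, 0.427 and 0.0570 CPM, where the change of -2.84 ± 0.94 on the log2 scale did not pass (edgeR adjusted p = 0.0868) unless mouse 2 was left out, when it was -4.65 (adjusted p = 0.0207). Day 5 females were still low at 0.531, 0.481, 0.480 and 0.343 CPM, a fall of 3.72 ± 0.47 on the log2 scale (edgeR adjusted p = 0.0112). The change from Day 0 to Day 5 thus differed between the sexes by 3.56 ± 0.65 on the log2 scale, males minus females (edgeR interaction test, adjusted p = 0.0330). The Day 5 groups did not overlap, and males were higher by 3.23 ± 0.51 on the log2 scale (edgeR adjusted p = 0.0373). The interaction fell short of the threshold in 10 of the 16 fits that left out 1 mouse, with values of 3.24 to 3.92 and adjusted p of 0.00214 to 0.107, and mitochondrial transcripts took 78.9% to 79.8% of counts in male Day 5 mice 2, 3 and 4.

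Gmds was the member called lower most often, in 4 of the 6 comparisons with Day 0. Day 0 males stood at 16.4, 14.8, 31.7 and 11.7 CPM, Day 3 males at 2.71, 2.90, 2.89 and 3.07 CPM and Day 5 males at 2.63, 6.68, 9.99 and 7.16 CPM. Neither later group reached Day 0, and Gmds fell by 2.69 ± 0.32 on the log2 scale at Day 3 (edgeR adjusted p = 0.00390) and by 1.46 ± 0.45 at Day 5 (adjusted p = 0.0480). Day 2 males, at 9.63, 2.88, 2.25 and 2.22 CPM, also lay below Day 0, but the change of -2.12 ± 0.54 on the log2 scale did not pass (edgeR adjusted p = 0.0599) unless mouse 1 was left out, when it was -2.92 (adjusted p = 0.0306). Day 0 females stood at 17.1, 16.4, 36.1 and 10.4 CPM, Day 2 females at 1.73, 1.5, 1.27 and 1.41 CPM and Day 5 females at 2.48, 4.21, 3.09 and 1.33 CPM. The female falls were 3.76 ± 0.39 on the log2 scale at Day 2 (edgeR adjusted p = 0.00382) and 2.86 ± 0.46 at Day 5 (adjusted p = 0.0376). Day 3 females stood at 2.31, 9.60, 2.38 and 1.62 CPM, with mouse 2 near the lowest Day 0 value and a change of -2.34 ± 0.62 on the log2 scale (edgeR adjusted p = 0.0531). The plot of the 3 genes by mouse shows these levels side by side.

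**Figure D1:**
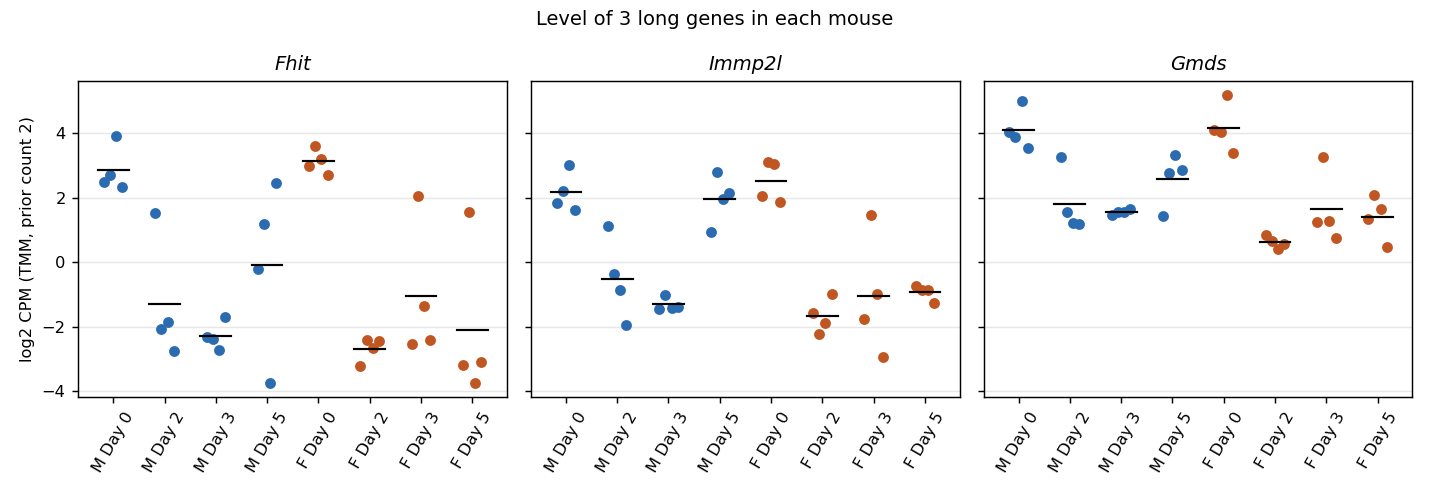
Log2 CPM (y axis, TMM scaling, prior count 2) of Fhit, Immp2l and Gmds in each of 4 mice per group (points) with the group mean (line), for males and females at Day 0, 2, 3 and 5 (x axis). Fhit reached 4.13 CPM in 1 Day 3 female while the other 3 were at or below 0.315 CPM, and Immp2l in Day 5 males was at 1.85 to 6.83 CPM.

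The other long genes did not move as a class with these 3 in males. At Day 2, 0 of 111 long genes were called lower by edgeR, where 1.35% of all genes tested were, although 41 of the 111 (36.9%) had an unadjusted p under 0.05, against 29% of all genes, 12 of them lower, and DESeq2 called 27 (24.5%, against 16.3%), of which 8 were lower. Higher calls numbered 5 of 111, against 1.81%. At Day 3, 13 of 111 were called lower and 27 higher, against 13.1% and 11.4% of all genes. At Day 5, 14 of the 106 tested were lower and 14 higher, against 10.2% and 8.98%. Of the calls that also passed an absolute log2 fold change of 1.5, the long genes held 1 at Day 2, 8 at Day 3 and 11 at Day 5, against backgrounds of 0.716%, 3.72% and 7.53%. The share of long genes called lower in males was thus near the background at Day 3 and Day 5, and the share called higher at Day 3 was 24.3%. The median log2 fold change of the long genes was 0.16, 0.18 and 0.17 at Day 2, 3 and 5, and that of the shorter genes 0.04, 0.02 and 0.02. Among the 108 long genes other than Fhit, Immp2l and Gmds, 0 were lower at Day 2 and 10 at Day 3 (9.26%), and at Day 5 13 of the 103 tested were (12.6%). The median without the 3 genes was 0.18, 0.20 and 0.18. Without male Day 2 mouse 1, 4 members were lower and 1 higher at Day 2, and without male Day 5 mouse 1, 18 were lower and 17 higher at Day 5. Leaving out Day 5 mouse 2, 3 or 4, in which mitochondrial transcripts were most abundant, gave 8 or 9 lower and 3 or 4 higher. At Day 3 the counts ran from 5 lower and 8 higher without Day 3 mouse 3 to 15 and 38 without Day 0 mouse 3, and at Day 2 from 0 and 0 without Day 0 mouse 1 or Day 2 mouse 2 or 4 to 4 and 18 without Day 0 mouse 4, the male control with the largest mitochondrial share. Without that control there were 14 lower and 37 higher at Day 3 and 15 and 19 at Day 5.

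In females the long genes leaned lower at Day 2. There, 9 of 111 were called lower, or 8.11%, against 1.16% of all genes, and 1 was higher against 0.774%. Fhit, Immp2l and Gmds, whose fall was known, are 3 of the 9, and of the other 108 long genes 6 were lower (5.56%). Those 6 calls depended on single mice: 0 of the 108 were lower without Day 0 mouse 1 or 2 or without Day 2 mouse 2 or 3, 1 was without Day 2 mouse 1, and 16 were without Day 0 mouse 4. At Day 3, 1 was lower against 4.28% and 2 were higher against 1.26%, and at Day 5, 2 of the 110 tested were lower against 0.0738% and 0 were higher against 0.185%. The 2 were Immp2l and Gmds, so edgeR called 0 of the other 107 at Day 5. At an unadjusted p under 0.05 there, 20 of the 110 were lower and 3 higher, against 10.1% and 5.57% of all genes, and DESeq2 called 14 lower and 3 higher, against 2.37% and 1.57%. Past the log2 fold change of 1.5 there were 8 long genes at Day 2, 1 at Day 3 and 2 at Day 5, against 1.41%, 2.48% and 0.228% of all genes. The median log2 fold change of the long genes was -0.24, 0.06 and -0.15 at Day 2, 3 and 5, and of the shorter genes 0.05, 0.04 and 0.03. Without Fhit, Immp2l and Gmds it was -0.24, 0.09 and -0.13. At Day 2, 76 of the 111 long genes had a value below 0 and 25, or 22.5%, a value below -1, against 9.12% of shorter genes. Markers of other cell types moved in Day 2 females as well. Lower were 5 of 6 erythroid (median -6.04), 2 of 7 adipocyte (-0.63), 1 of 12 distal tubule and collecting duct (-0.70) and 1 of 10 leukocyte markers (-1.02). The share of all genes was 1.16%, and 0 in these lists were higher. Their part in the lean of the long genes was not tested. Control mice weighed on the counts of long genes. Without female Day 0 mouse 4, the female control with the largest mitochondrial share, the calls were 19 lower and 11 higher at Day 2, 6 and 23 at Day 3, and 9 and 5 at Day 5, with a median at Day 2 of 0.08 over the 108 genes. Without female Day 0 mouse 2, the one with hepatocyte markers, they were 3 and 0, 0 and 0, and 1 and 0. Without female Day 3 mouse 2 they were 7 lower and 3 higher at Day 3, and without female Day 5 mouse 2, 3 lower and 1 higher at Day 5. Without female Day 5 mouse 1, 3 or 4 edgeR called 0 at Day 5. All comparisons within a sex share the same 4 Day 0 mice. Over the 6 comparisons, 19 members were called lower at least once (17.1%, against 18.2% of all genes tested), 35 higher at least once (31.5%, against 16%), 1 in both directions (Vps13b, chosen after its values were seen) and 58 in none, as the plot of every member against the shorter genes shows.

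**Figure D2:**
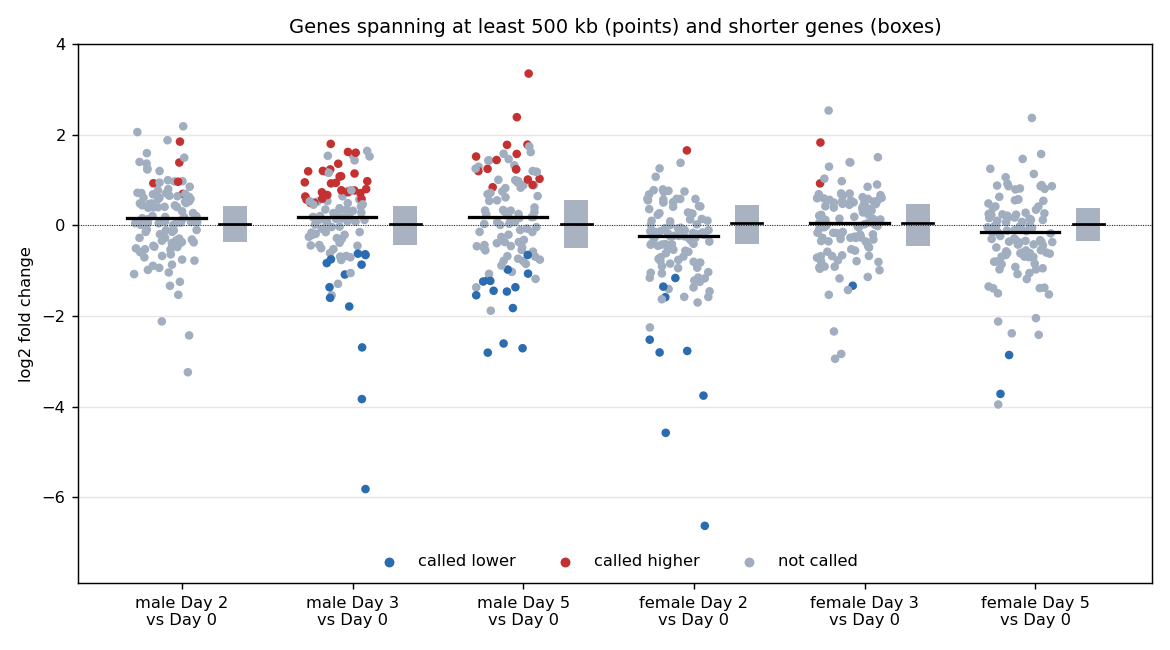
Log2 fold change against Day 0 (y axis) of each gene spanning at least 500 kb (points, coloured by whether edgeR called it lower, higher or neither) beside the distribution of the shorter genes (boxes), in 6 comparisons (x axis). The members run from -6.63 for Fhit in Day 2 females to 3.35 for Gpc6 in Day 5 males.

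Gene span did not go with the change in a single direction. The median log2 fold change in Day 3 males was -0.39 for genes under 10 kb, -0.04 at 10 to 30 kb, 0.20 at 30 to 100 kb, 0.34 at 100 to 200 kb and at 200 to 300 kb, 0.24 at 300 to 500 kb and 0.18 at 500 kb and over. In Day 2 females the medians in the same order were -0.25, 0.03, 0.19, 0.24, 0.08, -0.12 and -0.24. Both series thus peaked between 100 and 300 kb and came down toward the longest genes, further in females at Day 2. The share of genes below -1 in Day 2 females was 19.3% under 10 kb, 7.47% at 10 to 30 kb, 3.77% at 30 to 100 kb, 4.64% at 100 to 200 kb, 7.32% at 200 to 300 kb, 18.2% at 300 to 500 kb and 22.5% at 500 kb and over, so both the shortest and the longest classes held many such genes. In Day 2 males the share in the longest class was 7.21%, and it was 9.01% in Day 3 males. The plot of change by span shows the 6 comparisons. Both tails widened in Day 5 males, where 16.0% of long genes were below -1 and 24.5% above 1, against 10.8% and 13% of shorter genes.

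**Figure D3:**
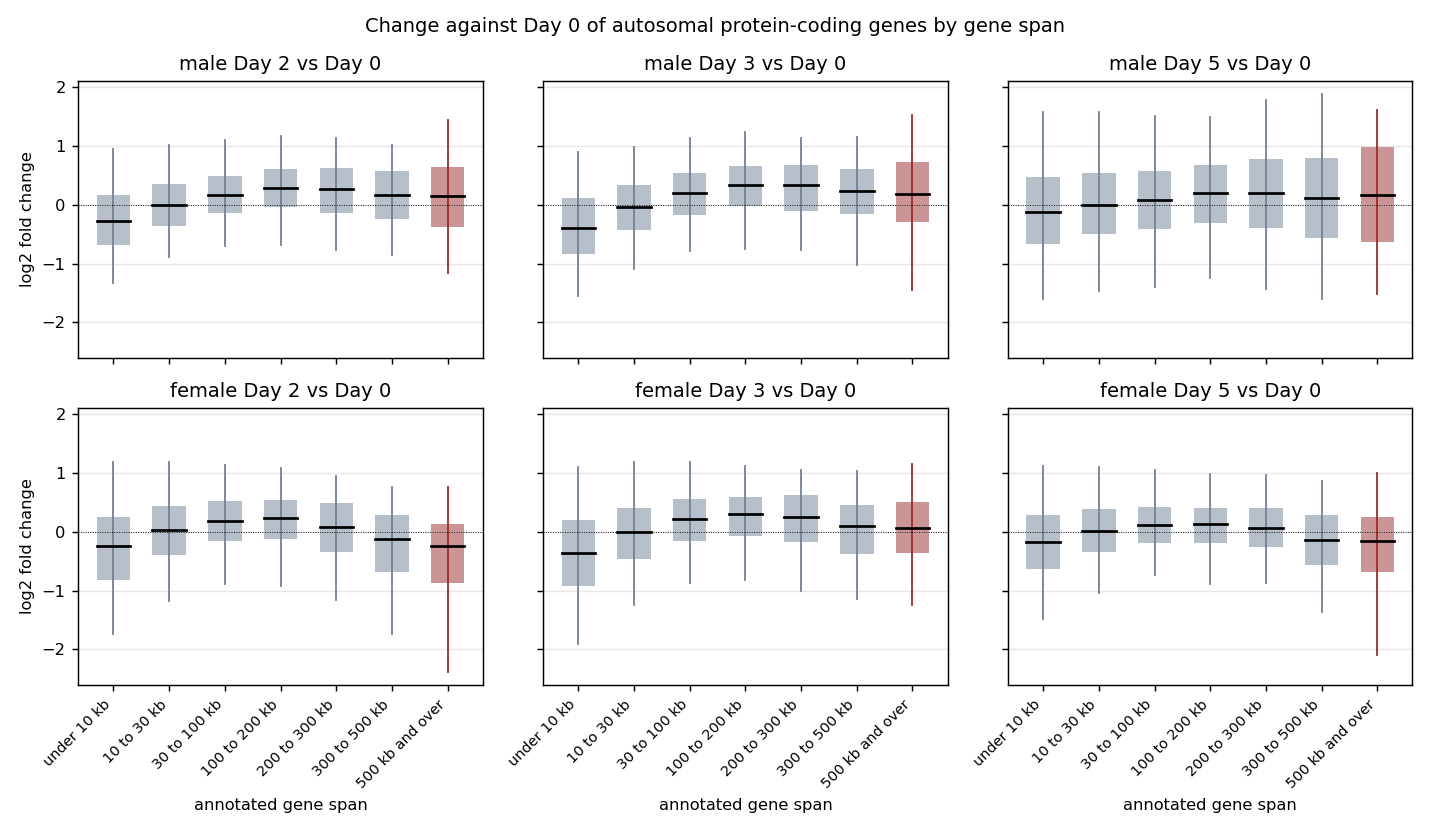
Log2 fold change against Day 0 (y axis) of autosomal protein-coding genes with a mean count of at least 20, in 7 classes of annotated span (x axis), with the median, the middle 50% and the 5th to 95th percentiles, in 6 comparisons (panels). In Day 2 females the median goes from 0.24 at 100 to 200 kb to -0.24 at 500 kb and over.

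Which shorter genes stood in the comparison set the sign of the difference in males. The median of the long genes minus that of all shorter genes was 0.12, 0.16 and 0.15 on the log2 scale in males at Day 2, 3 and 5 and -0.30, 0.01 and -0.19 in females. Against shorter genes within the 10th to 90th percentile of the members' exonic length, the same differences were -0.12, -0.15 and 0.01 in males and -0.50, -0.23 and -0.29 in females. Against shorter genes of like mean count they were 0.05, 0.09 and -0.01 in males and -0.34, -0.04 and -0.24 in females. Genes of at least 800 kb against those under 500 kb gave -0.18, -0.17 and 0.01 in males and -0.43, 0.01 and -0.24 in females. The difference at Day 2 in females was below 0 under each of these choices, and that at Day 5 in females as well. With the 77 members whose principal transcript reached 500 kb, a choice made after seeing the data, Day 2 females gave -0.46 and Day 2 males 0.08.

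Taken mouse by mouse, with each mouse set against the Day 0 mean of its sex, the median of the long genes minus that of the shorter genes was above 0 in each of the 12 cisplatin males and varied among the females. Day 2 males stood at 0.49, 0.09, 0.25 and 0.04 on the log2 scale, Day 3 males at 0.20, 0.28, 0.20 and 0.32 and Day 5 males at 0.20, 0.13, 0.14 and 0.11, where Day 0 males ran from -0.07 to 0.18. Day 2 females stood at -0.37, -0.27, -0.40 and 0.04, and Day 0 females at -0.11, -0.24, -0.06 and 0.32. The female groups overlapped: mouse 4 at Day 2 was above 3 of the 4 controls, and mouse 4 at Day 0 was above every Day 2 female. Day 3 females ran from -0.22 to 0.36 and Day 5 females from -0.49 to 0.22, with mouse 2 the highest at both days. The plot of this difference by mouse gives the 32 values. The score is a description of a chosen set and carries no test.

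**Figure D4:**
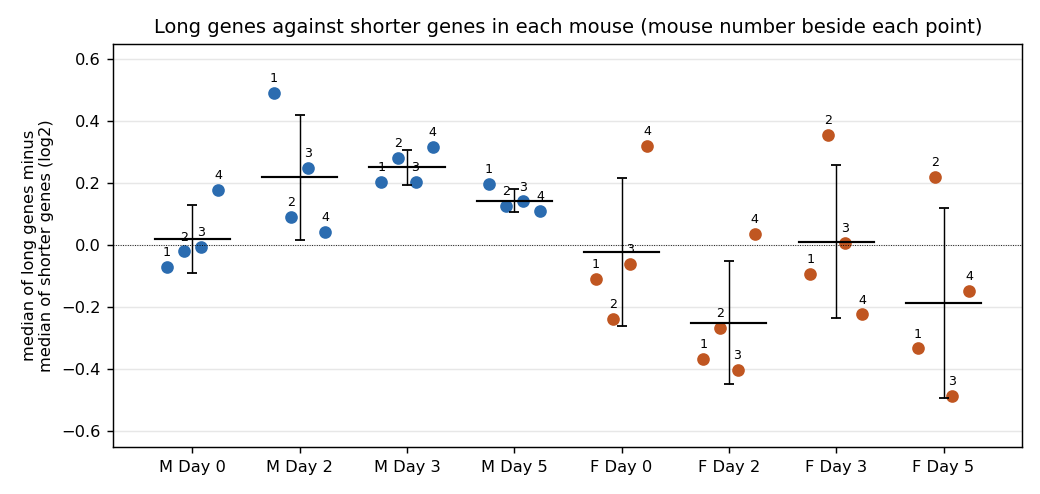
Median log2 CPM change of the 111 long genes minus that of the 12975 shorter genes (y axis), relative to the Day 0 mean of the same sex, for each mouse (points, with the mouse number) in 8 groups (x axis). The 12 cisplatin males lie between 0.04 and 0.49, and 3 of the 4 Day 2 females between -0.40 and -0.27.

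The falls among the long genes were set against their exon number. The 111 were divided by the exons of the principal transcript into 39 genes with 2 to 15, 35 with 16 to 25 and 37 with 26 to 146. In Day 3 males 10 of the 39, 3 of the 35 and 0 of the 37 were called lower, while 8, 6 and 13 were called higher. In Day 2 females 8, 1 and 0 were called lower, in the same order, and Fhit, Immp2l and Gmds are among the 10 and the 8. In Day 5 males the lower calls were spread more evenly, at 7 of 37, 4 of 33 and 3 of 36 tested. The shorter genes showed the same order, with 18%, 3.08% and 0.893% called lower in Day 3 males, 1.25%, 0.297% and 0.111% in Day 2 females and 12.3%, 8.56% and 3.93% in Day 5 males, so the order is not particular to the long genes. Median log2 fold changes of the long genes were 0.08, 0.15 and 0.52 in Day 3 males, against -0.11, 0.29 and 0.52 in shorter genes of the same exon numbers. In Day 2 females they were -0.42, -0.24 and -0.18, against -0.03, 0.23 and 0.36. Across the long genes, Spearman's rho between log2 fold change and the spliced percentage of the span was 0.24 to 0.47 over the 6 comparisons (-0.12 to 0.0029 across the shorter genes), and between log2 fold change and annotated span -0.16 to 0.02 (106 to 111 genes, which share the libraries and are not independent). With the span of the principal transcript rho was -0.24 to -0.19, and with its longest intron -0.20 to -0.07, below 0 in each of the 6 comparisons. Across the shorter genes, rho with the span of the principal transcript was 0.10 to 0.37. The plot of change by exon number shows the single genes.

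**Figure D5:**
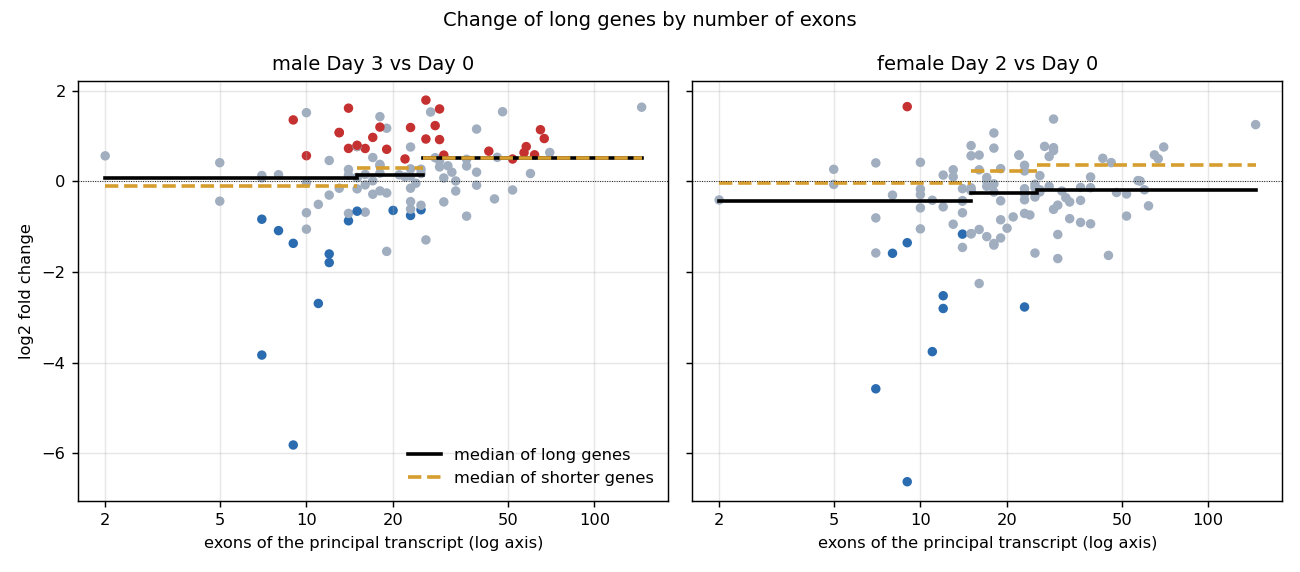
Log2 fold change against Day 0 (y axis) of each long gene by the number of exons of its principal transcript (x axis, log scale), with the median of the long genes (solid) and of shorter genes with as many exons (dashed) in 3 classes of exon number. In Day 3 males the medians of the long genes are 0.08, 0.15 and 0.52 from few to many exons.

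The role lists are not complete, and 29 members are in none of them. The list of enzymes, organelle proteins and proteins of membrane traffic holds 20 members, among them Fhit, Immp2l and Gmds. Of the 19 members called lower at least once, 11 are in this list, and of the 16 other than the 3 genes, 8 are. Lower calls at least once thus fell on 11 of the 20 and on 8 of the 17 without the 3 genes, against 18.2% of all genes tested. Of the 20, 9 were lower (45%) and 4 higher (20%) in Day 3 males, against 13.1% and 11.4% of all genes, with a median log2 fold change of -0.67. Day 2 females had 7 lower (35%, against 1.16%) and 0 higher, with a median of -1.11. Without Fhit, Immp2l and Gmds, 6 of 17 were lower in Day 3 males, with a range of 1 to 6 when 1 mouse was left out, and 4 of 17 in Day 2 females, with a range of 0 to 8. In Day 5 males 7 of the 19 tested were lower (36.8%, against 10.2%) and 1 higher (median -0.65). In Day 5 females the 2 lower calls of the 20 were Immp2l and Gmds (median -0.96). Day 2 males had 0 lower and 1 higher (median -0.67), and Day 3 females 0 lower and 1 higher (median -0.75). At an unadjusted p under 0.05, 7 and 8 were lower there, against 16% and 19.1% of all genes. DESeq2 called 4 lower in each, against 8.73% and 11.4%. Over all genes the median of each comparison was 0.02 to 0.04. Among the members of this list that fell, Dpyd and Cpq stood beside Fhit, Immp2l and Gmds. Dpyd, the first enzyme of pyrimidine breakdown, stood at 23.4, 29.5, 13.1 and 65.7 CPM in Day 0 females and 4.07, 4.25, 3.59 and 7.51 CPM at Day 2. The groups did not overlap, and Dpyd fell by 2.77 ± 0.47 on the log2 scale (edgeR adjusted p = 0.0236), as it did by 0.75 ± 0.16 in Day 3 males (adjusted p = 0.0168) and by 1.83 ± 0.31 in Day 5 males (adjusted p = 0.00943). Cpq, a plasma carboxypeptidase of blood and lysosome, stood at 67.3, 61.2, 41.0 and 45.8 CPM in Day 0 males and at 18.6, 27.8, 22 and 33.0 CPM at Day 3. It fell by 1.09 ± 0.22 on the log2 scale without overlap (edgeR adjusted p = 0.0143), and by 1.59 ± 0.25 in Day 2 females (adjusted p = 0.0171).

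Macrod2, which removes ADP-ribose from proteins, separated Day 5 from the earlier days in males. It stood at 121, 119, 138 and 87.3 CPM at Day 0, at 67.5, 109, 92.3 and 122 CPM at Day 3 and at 29.8, 14.1, 9.03 and 10.4 CPM at Day 5. The Day 5 group lay apart from Day 0 and the Day 2 and Day 3 groups did not, and Macrod2 fell there by 2.81 ± 0.38 on the log2 scale (edgeR adjusted p = 0.00485). Erc2, a scaffold protein of synaptic active zones, stood at 19.1, 21.3, 22.3 and 19 CPM at Day 0 and lay below that range at each later day, at 16.5, 10.6, 12.7 and 7.55 CPM, at 8.84, 15.8, 11.8 and 16.1 CPM and at 3.58, 2.53, 1.13 and 5.48 CPM. The change at Day 2 was -0.78 ± 0.23 on the log2 scale and did not pass (edgeR adjusted p = 0.0777), and Erc2 fell by 0.64 ± 0.20 at Day 3 (adjusted p = 0.0454) and by 2.61 ± 0.38 at Day 5 (adjusted p = 0.00615). Beside these falls, 6 of 14 proximal tubule markers were also called lower in Day 5 males, against 10.2% of all genes, with a median log2 fold change of -2.03. The part of these markers in the falls was not tested. In Day 2 females edgeR called 0 of those 14 markers (median -0.24). There 4 were lower at an unadjusted p under 0.05 and DESeq2 called 2 lower, against 15.4% and 7.58% of all genes. Their sum was 8430 to 17375.5 CPM in Day 2 females, below the 19812.5 to 48862 CPM of Day 0 females. Gpc6, a cell-surface heparan sulfate proteoglycan, went the other way: it stood at 0.651, 0.5, 0 and 2.53 CPM in Day 0 males and at 3.30, 12.6, 10.6 and 8.42 CPM at Day 5. It rose by 3.35 ± 0.97 on the log2 scale without overlap (edgeR adjusted p = 0.0394), from a mean count below 20 in Day 0 males. Exoc4, a subunit of the exocyst that tethers secretory vesicles, rose in the same list, from 28.6, 29.4, 22.7 and 35.2 CPM in Day 0 males to 67.1, 63.9, 64.5 and 70.8 CPM at Day 3. The difference was 1.2 ± 0.14 on the log2 scale with no overlap (edgeR adjusted p = 0.00370), and Day 3 females gave 0.92 ± 0.22 (adjusted p = 0.0487). Cell type markers rose as well in Day 5 males. Higher were 4 of 5 adrenal markers (median 4.68), 3 of 9 endothelial (0.73), 2 of 12 distal tubule and collecting duct (0.42), 1 of 9 stromal (0.74) and 1 of 6 erythroid (1.34). Of 12 leukocyte markers 2 were higher and 1 lower (1.01). The share of all genes called higher was 8.98%, and the part of these markers in the rises was not tested.

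The list of genes at common fragile sites shares 24 genes with the set and overlaps the role lists, and it holds Fhit and Immp2l. In Day 3 males 6 of 24 were lower (25%) and 5 higher (20.8%), against 13.1% and 11.4% of all genes, with a median log2 fold change of -0.16. Day 2 females had 5 lower (20.8%, against 1.16%) and 0 higher, with a median of -0.62. Day 5 males had 4 lower (16.7%, against 10.2%) and 0 higher (median -0.38), and in Day 5 females the 1 lower call was Immp2l (median -0.46). Without Fhit and Immp2l, 4 of 22 were lower in Day 3 males (18.2%) and 3 in Day 2 females (13.6%), with ranges of 1 to 4 and 0 to 5 when 1 mouse was left out. In Day 2 males and in Day 3 females 0 were lower and 1, Exoc4, was higher, with medians of -0.23 and -0.27. Wwox, an oxidoreductase with WW domains, fell beside Fhit and was chosen after its values were seen. It stood at 9.25, 10.8, 5.54 and 9.58 CPM in Day 0 females and at 3.58, 3.51, 2.96 and 3.75 CPM at Day 2. The Day 2 group lay below Day 0, and the fall was 1.35 ± 0.28 on the log2 scale (edgeR adjusted p = 0.0433). In female Day 3 mouse 2, the mouse with near-normal Cdkn1a, Wwox was at 9.91 CPM, within the Day 0 range, where the other 3 mice held 3.42 to 3.74 CPM.

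Of the 23 members on the list of adhesion and polarity genes, 1 was called lower in any comparison with Day 0. Males at Day 3 had 0 lower and 7 higher (30.4%, against 11.4% of all genes), with a median log2 fold change of 0.34, and a range of 2 to 10 higher when 1 mouse was left out. In Day 2 males 0 were lower and 2 higher (8.70%, against 1.81%), with a median of 0.21 and a range of 0 to 6 higher when 1 mouse was left out. Markers of other cell types moved in Day 3 males as well. There, 3 of 9 podocyte markers (median log2 fold change 0.78) and 2 of 9 endothelial markers (0.60) were higher, against 11.4% of all genes. Lower were 4 of 12 distal tubule and collecting duct markers (-0.59) and 5 of 6 erythroid markers (-9.92), against 13.1% of all genes. So were 3 of 7 adipocyte markers (-1.76), 3 of 8 hepatocyte markers (0.10) and 2 of 11 leukocyte markers (-0.36). The podocyte markers summed to 229.8 to 337 CPM at Day 0 and 437 to 530.0 CPM at Day 3 and the endothelial markers to 309.9 to 404 CPM and 497 to 519.9 CPM, with none of either list at 0 in any library. Their part in the rises of adhesion and receptor genes was not tested. Day 5 males had 1 lower, with a median of 0.0086. In females 1 was higher at Day 2 and 1 at Day 3, and the medians at Day 2, 3 and 5 were -0.16, 0.02 and -0.03. Nrg1, a ligand of ErbB receptors, gave the female rises. It stood at 4.09, 4.21, 4.70 and 5.56 CPM in Day 0 females and at 12.0, 19.8, 17.0 and 9.64 CPM at Day 2, a rise of 1.65 ± 0.28 on the log2 scale with no overlap (edgeR adjusted p = 0.0255). At Day 3, mouse 2 was at 4.73 CPM and the other 3 at 19.1 to 21.8 CPM, so the groups overlapped although Nrg1 was called higher, by 1.83 ± 0.43 on the log2 scale (edgeR adjusted p = 0.0480). The principal transcript of Nrg1 covered 101 kb of its 1069 kb locus. Lama2, the laminin chain of the basement membrane around muscle and interstitium, stood at 9.77, 9.35, 5.69 and 14.3 CPM in Day 0 males and at 28, 21.2, 22.3 and 29.7 CPM at Day 2, a rise of 1.38 ± 0.27 on the log2 scale with no overlap (edgeR adjusted p = 0.0400). Robo1 and Robo2, receptors for Slit guidance cues, were called higher in Day 3 males by 1.60 ± 0.47 (edgeR adjusted p = 0.0400) and 0.94 ± 0.18 (adjusted p = 0.0127) on the log2 scale, each with no overlap. Ptprk, a receptor tyrosine phosphatase of cell contacts, was the member called lower in Day 5 males, with Day 0 at 94.3, 79.6, 52.9 and 87.0 CPM and Day 5 at 57.7, 25.8, 20.1 and 24.3 CPM. Mouse 1 at Day 5 overlapped the controls, and the fall was 1.23 ± 0.33 on the log2 scale (edgeR adjusted p = 0.0326).

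The 25 members on the list of receptors, channels and signalling proteins had no fall called by edgeR in any comparison with Day 0. DESeq2 called 2 lower in Day 5 males and 3 in Day 2 females, against 11% and 7.58% of all genes. In Day 3 males 7 of 25 were higher (28%, against 11.4% of all genes), with a median log2 fold change of 0.50 and a range of 1 to 11 when 1 mouse was left out. In Day 5 males 2 of the 22 tested were higher (9.09%), near the 8.98% of all genes, with a median of 0.66. In Day 2 males edgeR called 0, with a median of 0.47. There 6 were higher at an unadjusted p under 0.05 and DESeq2 called 3 higher, against 13% and 7.53% of all genes. In females edgeR called 0 at Day 2, 3 and 5, with medians of -0.11, 0.39 and -0.07. At an unadjusted p under 0.05 there were 4 lower, 2 higher and 1 lower, against 15.4%, 11.7% and 10.1% of all genes in those directions. Trpm3, a cation channel, stood at 0.543, 0.350, 0.474 and 0.518 CPM in Day 0 males and at 1.25, 1.39, 2.24 and 1.71 CPM at Day 3. The groups did not overlap, and Trpm3 rose by 1.8 ± 0.35 on the log2 scale (edgeR adjusted p = 0.0126) from a low level. Its mean count in Day 0 males was below 20, so it passed the count limit through groups in which it is higher. Inpp4b, a phosphatase of inositol lipids, rose by 1.19 ± 0.33 on the log2 scale (edgeR adjusted p = 0.0350) from 0.839 to 2.50 CPM at Day 0 to 3.75 to 5.06 CPM at Day 3. Kcnma1, the large-conductance potassium channel, was at 1.03, 1.05, 0.839 and 1.67 CPM in Day 0 males and 1.51, 3.86, 4.03 and 5.76 CPM at Day 5, with mouse 1 inside the Day 0 range, and rose by 1.78 ± 0.49 on the log2 scale (edgeR adjusted p = 0.0337). Fgfr2 rose by 1.03 ± 0.26 on the log2 scale in Day 5 males with no overlap (edgeR adjusted p = 0.0256), from 7.88 to 14.6 CPM at Day 0 to 18 to 30.9 CPM.

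Of the 14 members on the list of transcription and RNA-binding factors, 1 was lower (7.14%) and 4 higher (28.6%) in Day 3 males and in Day 5 males alike, against 13.1% and 10.2% of all genes lower and 11.4% and 8.98% higher, with medians of 0.17 and 0.40. In Day 2 females 1 was lower (against 1.16% of all genes) with a median of -0.20, and in Day 2 males 1 was higher (against 1.81%). At Day 3 and Day 5 in females edgeR called 0, with medians of 0.04 and -0.01. DESeq2 called 1 lower at each of those days, against 11.4% and 2.37% of all genes, and 1 higher at Day 3, against 6.13%. Smyd3, a lysine methyltransferase, was the factor that fell. It stood at 8.90, 8.65, 12.6 and 9.38 CPM in Day 0 males, at 2.25, 3.98, 2.89 and 3.93 CPM at Day 3 and at 2.46, 5.64, 4.03 and 4.07 CPM at Day 5. Neither later group reached Day 0, with falls of 1.60 ± 0.24 (edgeR adjusted p = 0.00653) and 1.24 ± 0.31 (adjusted p = 0.0254) on the log2 scale, and the fall in Day 2 females was 2.52 ± 0.39 (adjusted p = 0.0169). Mecom, a zinc-finger factor of the distal nephron and of blood stem cells, moved the other way, from 19.8, 21.2, 18.7 and 16.6 CPM in Day 0 males to 48.4, 51.2, 49.0 and 49.7 CPM at Day 5. It rose by 1.44 ± 0.16 on the log2 scale with no overlap (edgeR adjusted p = 0.00381), and by 0.73 ± 0.11 at Day 3 (adjusted p = 0.00733). Auts2, a transcription regulator best known from the developing brain, rose by 0.80 ± 0.23 on the log2 scale in Day 3 males (edgeR adjusted p = 0.0378).

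The 29 members in no role list, which include enzymes, receptors and transcription factors that the lists missed, gave 3 lower (10.3%) and 6 higher (20.7%) in Day 3 males, against 13.1% and 11.4% of all genes. In Day 5 males 4 of the 28 tested were lower (14.3%, against 10.2%) and 7 higher (25%, against 8.98%), and in Day 2 males 0 were lower and 1 higher. When 1 mouse was left out these counts ran from 0 to 5 lower and 1 to 10 higher in Day 3 males and from 4 to 6 lower and 2 to 9 higher in Day 5 males. In females 1 was lower at Day 2 and 1 at Day 3, against 1.16% and 4.28% of all genes, and edgeR called 0 at Day 5, with medians of -0.30, 0.14 and -0.24. DESeq2 called 4 lower at Day 5, against 2.37% of all genes. Sugct, a mitochondrial enzyme of glutaric acid metabolism, was called lower in 3 of the 6 comparisons. It stood at 112, 105, 75.3 and 57.0 CPM in Day 0 males and at 22.7, 10.8, 5.64 and 11.4 CPM at Day 5, with no overlap and a fall of 2.71 ± 0.40 on the log2 scale (edgeR adjusted p = 0.00615). Fars2, the mitochondrial phenylalanyl-tRNA synthetase, stood at 54.7, 71.3, 94.8 and 34.7 CPM in Day 0 females and at 20.7, 35.3, 23.5 and 22.9 CPM at Day 3. Female Day 3 mouse 2 lay just above the lowest control, and Fars2 fell by 1.33 ± 0.31 on the log2 scale (edgeR adjusted p = 0.0479), after a fall of 0.83 ± 0.22 in Day 3 males (adjusted p = 0.0286). Rasgef1b rose in males at each day and in females at none. It stood at 4.12, 6.00, 5.69 and 3.74 CPM in Day 0 males and at 17.9, 18.2, 13.1 and 20.8 CPM at Day 2, a rise of 1.85 ± 0.23 on the log2 scale with no overlap (edgeR adjusted p = 0.0137). Females stood at 10.9, 15.1, 18.5 and 6.21 CPM at Day 0 and 17.6, 12.5, 8.84 and 6.32 CPM at Day 2, with full overlap and a change of -0.16 ± 0.39 on the log2 scale (edgeR adjusted p = 0.823). The difference of the changes at Day 2 was 1.98 ± 0.48 on the log2 scale, males minus females, and did not pass (edgeR interaction test, adjusted p = 0.652). Psd3, an exchange factor for ARF6, rose by 1.08 ± 0.23 (edgeR adjusted p = 0.0168) and 1.57 ± 0.34 (adjusted p = 0.0163) on the log2 scale in males at Day 3 and Day 5, with no overlap.

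The 6 genes of greatest span went different ways. After Fgfr2, which rose in Day 5 males, the longest were Ptprd at 2271 kb, Macrod2 at 1998 kb, Dlg2 at 1973 kb, Csmd1 at 1643 kb and Fhit at 1612 kb. Fhit had the lowest log2 fold change of the members in Day 3 males and Day 2 females, and Macrod2 in Day 5 males. Ptprd, a receptor tyrosine phosphatase, was called in none of the comparisons with Day 0, with Day 3 males at 67.9, 76.8, 72.7 and 105 CPM against 50.8, 49.2, 61.7 and 67.4 CPM at Day 0. The 2 groups did not overlap, at 0.49 ± 0.17 on the log2 scale (edgeR adjusted p = 0.0688). Dlg2, a membrane scaffold, and Csmd1, a complement-regulating membrane protein, were not called either, and their groups overlapped Day 0 in all 6 comparisons. Over the 111 genes, groups did not overlap Day 0 in 29, 49 and 34 at Day 2, 3 and 5 in males, against 24.4%, 38.3% and 27.3% of all genes tested. In females the counts were 24, 11 and 21, against 15.3%, 19.3% and 8.60%.

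Between the sexes at the same day, 1 of 111 long genes was called at Day 0, against 0.449% of all genes. It was Erc2, at 20.4 ± 1.66 CPM in males and 7.03 ± 1.37 CPM in females (SD, n = 4), a difference of 1.53 ± 0.21 on the log2 scale (edgeR adjusted p = 0.0240). At Day 2, 6 of 110 were called, each higher in males, against 1.47%, and Gpc6 differed by 2.07 ± 0.34 on the log2 scale (edgeR adjusted p = 0.0146). That count ran from 2 without female Day 2 mouse 3 to 16 without male Day 2 mouse 4, and was 3 without male Day 2 mouse 1. The median of the long genes was 0.51 on the log2 scale, males minus females, and -0.03 for the shorter genes. At Day 3, 18 of 109 were called against 21.3%, 14 of them higher in males, with Macrod2 differing by 1.45 ± 0.19 (edgeR adjusted p = 0.00175) and Dlg2 by -1.44 ± 0.42 (adjusted p = 0.0400) on the log2 scale. At Day 5, 2 of 106 were called against 0.276%, both higher in males. The female library with near-normal Cdkn1a and the male library with female Xist entered the last 2 counts, which were 47 without the first and 30 without the second. Fhit at Day 2 and Fhit and Immp2l at Day 3 were not tested between the sexes, because too few libraries held enough counts to pass the filter.

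The change from Day 0 itself was compared between the sexes by the interaction test. At Day 2 edgeR called 0 of 111 long genes and 0% of all genes, 17 long genes (15.3%) had an unadjusted p under 0.05, against 4.23% of all genes, and DESeq2 called 1 (0.901%, against 0.156%). The median interaction of the long genes was 0.47 on the log2 scale, males minus females, against -0.04 for shorter genes, and 18 of the 111 were below 0. At Day 3 edgeR called 0 of 111 against 0.0114%, with 7 (6.31%, against 7.11%) at an unadjusted p under 0.05 and 1 call by DESeq2 (0.909%, against 0.383%), and the median was 0.16. At Day 5 it called 1 of 111, Immp2l, against 0.243%, and the median was 0.42. That count was 9 without male Day 5 mouse 1 and 6 without female Day 5 mouse 2. The lean of the long genes at Day 2 thus differed between the sexes in its median, which carries no test, and in 0 single genes by edgeR.

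Genes of the machinery that carries polymerase through a gene were read beside the long genes. Of 50 genes of transcription elongation tested, 7 were lower (14%) and 12 higher (24%) in Day 3 males, against 13.1% and 11.4% of all genes, so the share of lower calls was near the background. The counts ran from 0 to 11 lower and 3 to 17 higher when 1 mouse was left out. There were 1 lower and 1 higher in Day 2 males and in Day 5 males (of 49), and 0 lower and 1 higher, 2 and 2, and 0 and 0 in females at Day 2, 3 and 5. With 1 mouse left out the female counts reached 6 lower and 14 higher at Day 2, 12 and 20 at Day 3, and 3 and 6 at Day 5. Polr2a, the catalytic subunit of RNA polymerase II, rose by 0.81 ± 0.18 in Day 2 males (edgeR adjusted p = 0.0491) and by 1.14 ± 0.25 in Day 2 females (adjusted p = 0.0498) on the log2 scale. Elof1, an elongation factor that also acts at stalled polymerase, fell by 1.32 ± 0.29 in Day 3 males (edgeR adjusted p = 0.0184) and by 1.52 ± 0.35 in Day 3 females (adjusted p = 0.0479) on the log2 scale. Of 18 genes of topoisomerases, RNA-DNA hybrid removal and transcription-coupled repair, 0 were lower and 7 higher in Day 3 males (38.9%, against 11.4%, and 2 to 8 with 1 mouse left out), and 2 lower (11.1%, against 10.2%) and 1 higher in Day 5 males. In females 1 was lower at Day 3 (against 4.28% of all genes), and edgeR called 0 at Day 2 and Day 5 and 0 in Day 2 males. DESeq2 called 2 lower in Day 2 females and 1 lower in Day 5 females, against 7.58% and 2.37% of all genes. In Day 2 males DESeq2 called 1 lower and 1 higher, against 8.73% and 7.53%. Uvssa and Ercc6, factors of transcription-coupled repair, rose by 1.19 ± 0.13 (edgeR adjusted p = 0.00281) and 1.23 ± 0.37 (adjusted p = 0.0423) on the log2 scale in Day 3 males.

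Nuclear noncoding RNAs and p53 targets were read as checks beside the long genes. Of the noncoding RNAs 0 of 13 were lower and 4 higher in Day 3 males (30.8%, against 11.4% of all genes), and Malat1, a nuclear RNA of splicing speckles, rose there by 2.49 ± 0.57 on the log2 scale (edgeR adjusted p = 0.0202). In Day 5 males 1 of 12 was lower and 3 higher, in Day 3 females 1 of 12 was lower, and edgeR called 0 in the other comparisons. DESeq2 called 1 lower and 2 higher in Day 2 males, against 8.73% and 7.53% of all genes. It called 1 lower in Day 2 females, against 7.58%, and 0 in Day 5 females. Of 10 p53 targets, 5, 7 and 5 were higher in males and 8, 6 and 7 in females at Day 2, 3 and 5, against 0.185% to 11.4% of all genes, and 0 were lower. Cdkn1a itself rose by 4.32 ± 0.49 on the log2 scale in Day 2 females (edgeR adjusted p = 0.00400) and by 3.09 ± 0.35 in Day 3 males (adjusted p = 0.00352), the comparisons in which Fhit, Immp2l and Gmds were each called lower. It also rose where they were not all called, by 3.19 ± 0.54 in Day 5 males (edgeR adjusted p = 0.00920), 4.20 ± 0.76 in Day 3 females (adjusted p = 0.0465) and 3.85 ± 0.39 in Day 5 females (adjusted p = 0.00427). In Day 2 males the change of Cdkn1a was 3.33 ± 0.79 on the log2 scale and did not pass (edgeR adjusted p = 0.0535).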

How the data were processed

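RNA from 32 kidneys, 1 mouse per library, was sequenced with paired-end reads. Deposited tables hold, for every library, raw counts per gene and FPKM values that the authors computed. The paper names GRCm38, whereas the submitters' processing notes list HTSeq, DESeq2, GRCm39 and mm39. Gene starts and ends in the count table equalled those of GENCODE vM21 (GRCm38) for 53499 of 54409 shared genes (98.3%), so GRCm38 was used. The aligner, tool versions and strand setting are not given in the sources used here. Without a strand setting, reads from genes nested in or antisense to a long gene cannot be told apart from its own. A count per gene does not show where along the gene its reads lay.

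The test on counts was the robust quasi-likelihood test of edgeR 4.0.16 (R 4.3.3), with TMM scaling and filterByExpr, each comparison fitted on its own groups over all genes. Genes were called at an adjusted p under 0.05 (Benjamini-Hochberg, over the whole table), and calls past an absolute log2 fold change of 1.5 were counted beside it. SE is that of the log2 fold change. CPM used TMM factors over 32 libraries, and log2 CPM a prior count of 2. Differences of medians and correlations over genes carry no test. Groups do not overlap where every CPM of one lies on one side of the other. Each mouse is a separate animal. Transcript features came from GENCODE vM21 and promoter windows from RefSeq GRCm38.p6, with 88 of 111 genes matched. Alternatives were DESeq2 1.42.0, other scalings, filters and samples in the fit, the FPKM values on log2(FPKM + 1), other comparison genes and leaving out each mouse. The edgeR step was tested on simulated data. Figures were drawn with matplotlib 3.10.9.

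The members, the gene lists, the tests and the rule for named genes were chosen with earlier results of these data known. The rule took Fhit, Immp2l and Gmds, the 6 members of greatest span, up to 3 members with the largest rise and fall without overlap per comparison with Day 0, members called the same way in both sexes at Day 3 or in an interaction, the genes beside each limit, and the 2 list genes with the largest change called. Total counts were 16502107 to 35961325 per library.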

Additional observations from a re-analysis of the deposited data

Results flagged for a closer look

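Of 168 groups of 4 mice examined for a mouse far from the other 3 among the named genes, 15 held one, where chance gives about 1 in 20 groups. The measure is the gap between that mouse and its neighbour in log2 CPM divided by the range of the group, set against Dixon's critical value for 4 mice. Female Day 3 mouse 2, the mouse with Cdkn1a near the Day 0 level, was apart for Lama2 (0.861), Erc2 (0.844) and Nrg1 (0.915). Female Day 5 mouse 2, in which 77.9% of counts were mitochondrial, was apart for Fhit (0.877), Rasgef1b (0.900) and Lama2 (0.956), and was the highest of its group for each. Female Day 0 mouse 4 was the highest of the controls for Ptprd (0.957) and Dlg2 (0.864), and mouse 3 the lowest for Robo1 (0.977). Dlg2 also stood high in male Day 0 mouse 4 (0.857) and in female Day 2 mouse 4 (0.846). In Day 2 males Exoc4 was lowest in mouse 1 (0.848) and Trpm3 in mouse 4 (0.880), and in Day 2 females Robo2 was lowest in mouse 1 (0.955). Immp2l was highest in male Day 3 mouse 2 (0.836), with the 4 mice between 0.292 and 0.425 CPM.

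The change of Immp2l from Day 0 to Day 5 differed between the sexes by 3.56 on the log2 scale, males minus females, with an adjusted p of 0.0330 in the edgeR interaction test. The part of the mitochondrial share of the Day 5 libraries in this difference was not tested.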

How the results depend on the processing

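With 4 mice per group, 1 mouse moved many counts by over 1.5 times. Leaving out each mouse in turn, the number of long genes called ran from 0 to 22, 13 to 53 and 11 to 35 in males at Day 2, 3 and 5, from 3 to 30, 0 to 29 and 0 to 14 in females, from 0 to 2, 2 to 16, 10 to 47 and 0 to 30 between the sexes at Day 0, 2, 3 and 5, and from 0 to 0, 0 to 1 and 0 to 9 in the interactions at Day 2, 3 and 5. DESeq2's Wald test called more long genes than edgeR at 27 in Day 2 males, 23, 13 and 17 in females at Day 2, 3 and 5, 6, 26 and 14 between the sexes at Day 0, 2 and 5, and 1, 1 and 7 in the interactions. One fit over all 8 groups called 12 and 25 in males at Day 2 and 3, 28, 15 and 20 in females, 3, 5 and 16 between the sexes at Day 0, 3 and 5, and 11 in the interaction at Day 5. Requiring at least 10 counts in every library gave 9 in Day 2 males, 16 and 8 in females at Day 2 and 3, and 0 between the sexes at Day 5. No filter gave 8 in Day 5 females and 8 between the sexes at Day 5, and DESeq2 size factors gave 0 in Day 3 females. The cause of these shifts was not tested. The other 50 counts stayed within 1.5 times.

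With the mouse number as a replicate block, the counts were 0 and 5 in males at Day 2 and 3, 6 and 0 in females at Day 2 and 3, 3, 3 and 0 between the sexes at Day 0, 2 and 5, and 1 in the interaction at Day 3. The deviations of same-numbered mice correlated at -0.57 to 0.61 over 13987 genes, and no comparison had all 4 pairs over 0.1. Males and females at Day 0 came nearest, with 3 of 4 pairs over 0.1 and 3 of 4 mice correlating best with their own number, a hint from the data and not from the design, so the numbers were not taken to pair the samples.

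The difference between long and shorter genes kept its sign in females at Day 2 and Day 5 under each alternative run. It was -0.50 in Day 2 females against genes of like exonic length and -0.087 with log2(FPKM + 1). In Day 2 males it was -0.18 for spans of at least 800 kb and -0.12 against like exonic length. In Day 3 males it was -0.17, -0.15, 0.094 against like mean count and 0.063 with log2(FPKM + 1). In Day 5 males it was 0.10 for spans of at least 300 kb, 0.0098 for at least 800 kb, 0.066 with a mean count of at least 50, 0.015 against like exonic length, -0.0050 against like mean count, 0.025 with log2(FPKM + 1), 0.11 without mitochondrial genes and 0.049 for principal transcripts of at least 500 kb, a choice made after seeing the data. So was leaving out Fhit, Immp2l and Gmds, which gave 0.14, 0.18 and 0.17 in males and -0.29, 0.05 and -0.16 in females. Leaving out each mouse, it ran from 0.02 to 0.26, 0.13 to 0.28 and 0.072 to 0.27 in males at Day 2, 3 and 5 and from -0.44 to -0.086, -0.15 to 0.28 and -0.41 to -0.03 in females. Immp2l in Day 5 males ran from -0.48 to 0.23: it turned to 0.23 without male Day 0 replicate 3 and to 0.14 without male Day 5 replicate 1, and was called in neither. Depth limits Fhit, which held at most 6 reads in each Day 3 male and each Day 2 female.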
